A study of Mus musculus with 8 samples.

Results

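Open chromatin was examined at 8 genes of dopamine handling in SN4741 cells: Gch1 and Ddc (synthesis), Slc6a3 and Slc18a2 (transport), Drd2 (receptor), and Maoa, Maob and Aldh1a1 (breakdown). The genes were taken as a list, and each was studied over its body with 20 kb added on either side, which came to 893 kb once the 18.5 kb shared by the neighbouring Maoa and Maob windows was counted once. SN4741 is a line from embryonic mouse substantia nigra, labelled as neural precursor cells of WT genotype, that carries a temperature-sensitive T antigen driven by a tyrosine hydroxylase promoter and has an unstable, polyploid karyotype. ATAC-seq, in which a transposase tags accessible DNA, was run on 4 libraries from cells at 37 °C in 10% fetal bovine serum and on 4 libraries from cells that had spent 48 h at 39 °C in 0.5% serum. Temperature and serum changed together and cannot be told apart. Nothing in the labels says that the libraries came from separate cultures, so the p-values measure only the spread between these libraries, which may be technical.

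Peaks of the 8 lists that overlapped were merged, and 31 of the 84777 regions called in at least 2 libraries (consensus regions) fell in the 8 windows. A further 3 window regions were called in 1 library each. Lists from 37 °C held 74026 to 92013 peaks and lists from 39 °C held 54845 to 68410. The peak caller kept 49.8 to 169 M fragments per library, and the 2 libraries above 100 M, replicates 1 and 4, were both at 37 °C. Replicate 4 at 39 °C had the shortest list. Because the deposited lists hold no read counts, a peak's strength is given as its percentile by −log10 q within its own library's list, with 100 the strongest. A list without its weak peaks gives lower percentiles to those it keeps. Over all 44861 regions called in all 8 libraries the median difference, 39 °C minus 37 °C, was −6.84 percentile points, and it was −0.46 over the 41177 that all libraries still called when each list was reduced to its 54845 strongest peaks. Differences are therefore read against that shift and are also given for lists of equal length. The shift is not the same at every rank, since a shorter list moves the strongest peaks least. Over the 13145 promoters called in all 8 libraries its median was −2.51 points. Regions were not matched by rank.

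Dopamine synthesis begins with tyrosine hydroxylase, which needs the cofactor tetrahydrobiopterin. Gch1 (GTP cyclohydrolase) makes the committed step towards that cofactor, and Ddc (aromatic L-amino acid decarboxylase) turns L-DOPA into dopamine. Slc18a2 encodes the vesicular monoamine transporter that loads dopamine into vesicles, Slc6a3 encodes the plasma membrane transporter that takes it back up, and Drd2 encodes a receptor that also acts as an autoreceptor on dopaminergic neurons. Maoa and Maob encode the mitochondrial monoamine oxidases, and Aldh1a1 encodes an aldehyde dehydrogenase that clears the aldehyde they form and is expressed in a ventral subset of midbrain dopaminergic neurons. An open promoter does not show that a gene is transcribed, and no RNA was analysed here.

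Promoters of Slc6a3 and Aldh1a1, called in some libraries only, and of Gch1, called in every library, are printed from RefSeq (GRCm38, the same assembly as mm10). Each is 300 bases from 250 before to 50 after the start, 5′ to 3′ on the gene's strand. Capitals mark the GC box GGGCGG, the CCAAT box, the TATA box TATAAA and the E-box CACGTG on either strand. Slc6a3 lies at chr13:73536497-73536796 (+ strand), Gch1 at chr14:47189364-47189663 (− strand), and the internal start of Aldh1a1 at chr19:20601718-20602017 (+ strand).
Slc6a3 promoter: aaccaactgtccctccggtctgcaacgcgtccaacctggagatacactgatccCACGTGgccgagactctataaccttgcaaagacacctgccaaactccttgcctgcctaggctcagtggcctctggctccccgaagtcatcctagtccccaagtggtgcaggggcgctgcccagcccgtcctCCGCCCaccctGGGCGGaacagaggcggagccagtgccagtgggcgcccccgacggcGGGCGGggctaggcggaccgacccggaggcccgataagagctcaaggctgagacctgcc
Gch1 promoter: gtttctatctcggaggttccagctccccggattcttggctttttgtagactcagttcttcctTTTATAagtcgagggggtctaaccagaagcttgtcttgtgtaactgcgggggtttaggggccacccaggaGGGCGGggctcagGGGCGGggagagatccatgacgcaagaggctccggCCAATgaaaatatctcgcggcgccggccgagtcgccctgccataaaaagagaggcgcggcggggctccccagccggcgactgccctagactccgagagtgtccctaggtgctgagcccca
Aldh1a1 internal promoter: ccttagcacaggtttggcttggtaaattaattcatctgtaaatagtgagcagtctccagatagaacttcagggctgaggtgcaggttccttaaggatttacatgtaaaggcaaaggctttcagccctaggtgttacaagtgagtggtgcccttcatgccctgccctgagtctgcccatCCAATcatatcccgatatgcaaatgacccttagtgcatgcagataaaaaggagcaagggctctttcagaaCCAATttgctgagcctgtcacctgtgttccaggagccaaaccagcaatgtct

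Outside the 1 kb promoters, 6 elements carry the comparisons below: 2 called at 37 °C alone, the strongest element, 1 that lost rank at 39 °C, 1 that gained rank, and the sole consensus region of Slc18a2. Each is 201 bases around the median summit, on the + strand of mm10, and is named by its distance from the outermost annotated start of the gene, positive in the direction of transcription. Capitals mark TGACTCA (AP-1) and GGAATG (TEAD) on either strand. In the Slc18a2 element a match to each of these motifs shares bases, so they run together.
Ddc +53.5 kb (chr11:11844526-11844726, 37 °C alone): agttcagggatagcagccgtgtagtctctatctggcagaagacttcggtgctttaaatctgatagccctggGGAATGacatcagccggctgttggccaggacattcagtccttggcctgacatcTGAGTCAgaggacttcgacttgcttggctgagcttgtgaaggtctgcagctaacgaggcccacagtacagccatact
Gch1 +55.3 kb (chr14:47134040-47134240, 37 °C alone): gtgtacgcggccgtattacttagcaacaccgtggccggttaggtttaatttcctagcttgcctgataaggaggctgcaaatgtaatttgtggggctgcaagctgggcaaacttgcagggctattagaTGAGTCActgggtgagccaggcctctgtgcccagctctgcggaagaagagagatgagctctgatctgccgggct
Ddc +77.3 kb (chr11:11820698-11820898, strongest): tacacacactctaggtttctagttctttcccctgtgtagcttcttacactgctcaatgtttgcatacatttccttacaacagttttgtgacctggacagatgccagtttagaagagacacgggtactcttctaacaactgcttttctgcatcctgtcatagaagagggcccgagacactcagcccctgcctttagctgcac
Ddc +72.3 kb (chr11:11825778-11825978, lower at 39 °C): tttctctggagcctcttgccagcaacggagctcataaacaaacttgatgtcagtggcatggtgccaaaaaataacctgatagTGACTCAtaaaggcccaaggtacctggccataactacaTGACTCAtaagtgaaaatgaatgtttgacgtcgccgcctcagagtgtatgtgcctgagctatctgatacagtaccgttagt
Maoa +22.5 kb (chrX:16642083-16642283, higher at 39 °C): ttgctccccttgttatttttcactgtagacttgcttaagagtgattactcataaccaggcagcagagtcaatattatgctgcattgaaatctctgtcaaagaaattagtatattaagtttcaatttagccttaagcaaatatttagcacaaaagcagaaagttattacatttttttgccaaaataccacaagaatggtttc
Slc18a2 +29.1 kb (chr19:59289911-59290111, sole region): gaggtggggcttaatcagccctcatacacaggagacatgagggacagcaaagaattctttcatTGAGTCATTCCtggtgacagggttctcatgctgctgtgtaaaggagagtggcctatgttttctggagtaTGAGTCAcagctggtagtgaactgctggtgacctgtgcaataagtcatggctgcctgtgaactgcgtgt

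Per library the 8 windows held 29, 28, 24 and 29 peaks at 37 °C and 21, 24, 26 and 18 at 39 °C, for means of 27.5 ± 2.38 and 22.3 ± 3.50 (SD, n = 4 each). The groups overlapped, and the difference of −5.25 peaks did not pass the exact permutation test (two-sided over all 70 assignments, p = 0.0857; adjusted over the 3 window values p = 0.171). On lists of equal length the difference was −1.25 peaks (exact permutation p = 0.343), and with a flank of 5 kb −2.50. Per 10000 peaks of the list the means were 3.37 ± 0.216 and 3.49 ± 0.296 (exact permutation p = 0.514, adjusted 0.514), a difference of 0.122 that was within the spread of the libraries. It ranged from 0.018 (without replicate 3 at 39 °C) to 0.220 (without replicate 1 at 39 °C) when 1 library was left out, and was 0.387 with a flank of 5 kb. On lists of equal length the direction turned, at −0.228. Peaks covered 26.8 ± 5.17 kb of the windows at 37 °C and 20.3 ± 3.39 kb at 39 °C (exact permutation p = 0.114, adjusted 0.171). Without replicate 3 at 37 °C, the shallowest library, that difference of −6.53 kb became −8.58 kb (exact permutation p = 0.0286, unadjusted and the smallest this split allows). It was −4.36 kb on lists of equal length and −2.36 kb in the libraries under 100 M fragments (exact permutation p = 0.114 and 0.533). The covered length of 15.2 kb in replicate 4 at 39 °C lay well below the other 3 libraries at that temperature, which had 21.8 to 22.2 kb. In a median over the 8 genes there were 2.97 consensus regions per 100 kb of window, against 5.78 over all 21938 protein-coding genes. Single genes ran from 1.33 (Slc18a2) to 7.95 (Gch1), and Gch1 alone lay above that median.

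**Figure D1:**
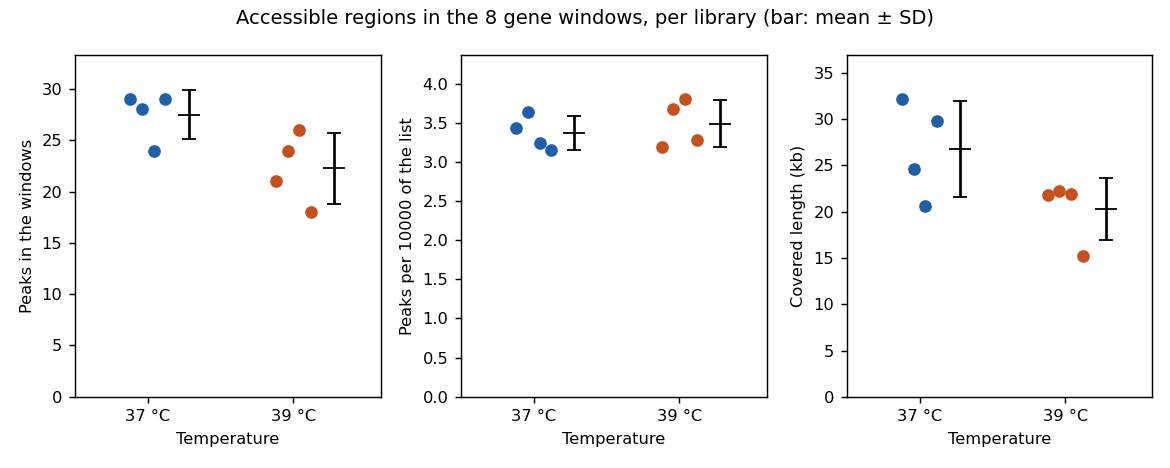
Peaks in the 8 gene windows (left, number; middle, number per 10000 peaks of the library's list) and the length they covered (right, kb) in each of the 4 libraries at 37 °C and 4 at 39 °C; points are libraries and the bar is the mean ± SD. The libraries at 39 °C had 18 to 26 window peaks against 24 to 29 at 37 °C, while the values per 10000 peaks overlapped, at 3.15 to 3.64 at 37 °C and 3.20 to 3.80 at 39 °C.

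Regions were then compared by the number of libraries that called them. By role, none of the 12 consensus regions of the synthesis genes or the 3 of the transporters had more libraries at 39 °C. Over all consensus regions 5.46% did. Of the synthesis regions 7 were called in all 8 libraries and 5 in more libraries at 37 °C, and of the transporter regions 1 and 2. The shares of all consensus regions were 52.9% and 37.9%. The 3 regions of the Drd2 window were called in all 8 libraries. Of the 13 regions of the breakdown genes, 5 were called in all 8 libraries, 4 in more at 37 °C and 3 in more at 39 °C. Differences between roles were not tested. In all, 11 regions were called in more libraries at 37 °C and 3 in more at 39 °C, against 37.9% and 5.46% of all consensus regions. Taken over the windows, 16 of 31 regions (51.6%) were called in all 8 libraries against 52.9% of all consensus regions. Regions with at least 2 more libraries at 37 °C numbered 8 of 31 (25.8%), against 28.5% of all regions. Those with at least 2 more at 39 °C numbered 3 of 31 (9.68%), against 2.99%. These 3 lie in Aldh1a1, in Maob and between Maoa and Maob, and no test of this count was made. Restricted regions, called in all 4 libraries of 1 temperature and in none of the other, numbered 2 at 37 °C, against 6.04% of all regions, and 0 at 39 °C, against 0.314%. Without replicate 3 at 37 °C they numbered 5 at 37 °C, and without replicate 1 at 39 °C 1 region was restricted to 39 °C.

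**Figure D2:**
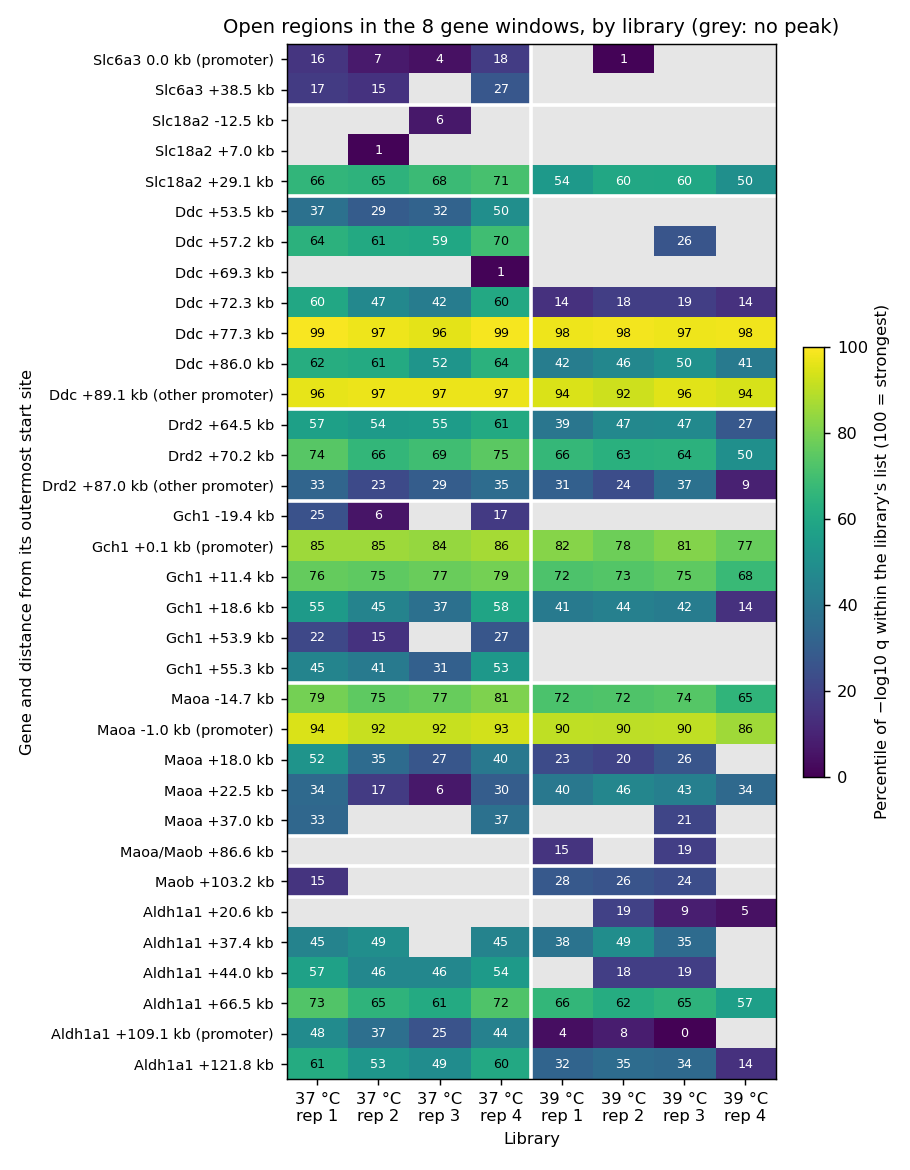
Percentile of −log10 q (colour and printed value; 100 is the strongest peak of a list, grey means no peak) for the 34 window regions in rows and the 8 libraries in columns, with 37 °C on the left. Rows are named by gene and distance in kb from its outermost start. Ddc +53.5 kb and Gch1 +55.3 kb are filled at 37 °C alone, and Maoa +22.5 kb runs from 6 to 34 at 37 °C and from 34 to 46 at 39 °C.

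Promoters were called within 1 kb of an annotated start in all 8 libraries at 2 of the 8 genes, Gch1 and Maoa, in some libraries at Slc6a3 and Aldh1a1, and in no library at Slc18a2, Ddc, Drd2 and Maob. Among all protein-coding genes 59.9% had a promoter peak in all 8 libraries and 31.3% in none. From the outermost start the nearest peak of any library was 6761 bp away for Slc18a2, 30145 bp for Ddc, 63984 bp for Drd2 and 76952 bp for Maob. At this depth these 4 promoters were not detectable as peaks at either temperature, which does not show that they are closed. The distance matters for Ddc, which has 10 annotated starts: within 5 kb of a start it had a peak in all 8 libraries, since its elements at +77.3 kb and +72.3 kb lie 2123 and 2957 bp from an inner one, and the genes called in all 8 libraries then numbered 3.

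The promoter of Gch1 (chr14:47153895-47189413, − strand) was called over 1145 to 1709 bp in every library. Its percentile was 85.5, 85.3, 84.3 and 86.4 at 37 °C and 81.8, 77.7, 81.3 and 76.8 at 39 °C. The temperatures did not overlap, as for 52.4% of the 13145 promoters called in all 8 libraries (higher at 37 °C). The difference of −5.98 points (SE 1.37) passed limma over all those promoters (adjusted p = 0.0050), where 59.8% were lower at 39 °C and 0.571% higher. On lists of equal length it was −1.99 points (SE 1.07, limma adjusted p = 0.225) and did not pass, beside 12.7% of promoters called lower and 5.83% higher. In the libraries under 100 M fragments it was −5.42 points and did not pass among promoters (limma adjusted p = 0.0675), although the same difference passed among all regions (limma adjusted p = 0.0367).

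Maoa (chrX:16619698-16687818, + strand) had the strongest promoter of the 8 genes. Its peak was 2552 to 4459 bp wide and lay at percentiles of 94.4, 91.7, 91.7 and 93.0 at 37 °C and 90.3, 90.0, 90.3 and 85.7 at 39 °C. Its fold enrichment, the pileup over the background of the library, was 61.4 to 69.0 at 37 °C and 36.0 to 73.3 at 39 °C, so the ranges overlapped on that scale. The percentile difference of −3.64 points (SE 1.11) passed limma (adjusted p = 0.0164), and with equal lists it was −1.70 points (SE 0.902, limma adjusted p = 0.220). It was −2.66 points in the libraries under 100 M fragments (limma adjusted p = 0.159). Neither promoter's width passed limma. The log2 width differed by −0.17 (SE 0.13, adjusted p = 0.360) at Gch1 and by −0.20 (SE 0.19, adjusted p = 0.466) at Maoa, beside calls of narrower peaks at 9.68% of promoters and wider peaks at 0.0609%. Without replicate 1 at 37 °C these differences were −0.083 and −0.068. Over the merged region of the Maoa promoter, which can hold more than 1 peak of a library, the covered log2 width differed by 0.083 (SE 0.15, limma adjusted p = 0.698), in the opposite direction.

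The Slc6a3 promoter (gene at chr13:73536747-73578672, + strand) was called in all 4 libraries at 37 °C and in 1 of 4 at 39 °C. Its peaks were weak. They ranked at percentiles of 15.5, 7.20, 4.48 and 17.8 at 37 °C and 0.794 in replicate 2 at 39 °C, with fold enrichments of 2.45, 2.53, 2.55 and 2.56 against 2.14. The deepest libraries, replicates 1 and 4 at 37 °C, gave the widest peaks, 614 and 686 bp, and the other 3 were 297 to 332 bp. Fisher's exact test of presence gave p = 0.143 (two-sided), and 2.10% of coding genes had all 4 libraries at 37 °C and at most 1 at 39 °C. At a −log10 q of at least 5 the promoter was called in 2 and 0 libraries, and on lists of equal length in none. Another 29 coding genes had a promoter peak in exactly the same 5 libraries, among which Sntb1, Tm6sf2 and Gm20489 were nearest in mean percentile. The printed promoter holds GC boxes and an E-box, motifs found in 47.8% and 8.03% of the 20150 RefSeq promoters of coding genes.

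Aldh1a1 (chr19:20492715-20643465, + strand) had no peak at its outermost start, where the nearest lay 20369 bp away. Its promoter call came from an annotated start inside the gene's annotated span, at position 20601961, and was present in 4 libraries at 37 °C and 3 at 39 °C. RefSeq also lists a start there. Which start is the main one in these cells was not tested, so the inner one may be the gene's usual promoter. There the percentile was 48.1, 36.5, 25.5 and 44.1 at 37 °C and 3.86, 8.10 and 0.451 in replicates 1 to 3 at 39 °C. The called values did not overlap, and the fold enrichment was 4.01 to 5.36 at 37 °C against 2.20 to 2.85 at 39 °C. On lists of equal length the peak remained in 3 libraries at 37 °C and in none at 39 °C. Fewer libraries at 39 °C than at 37 °C was the pattern of 2 of the 8 genes, Slc6a3 and Aldh1a1, and of 7.97% of coding genes, and more libraries at 39 °C that of none and of 0.470%. Without replicate 4 at 39 °C the first count was 1, since Aldh1a1 was then called in every remaining library.

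CpG content followed the promoter calls in part. RefSeq promoters were found for 7 of the 8 genes (all but Maob), with 9 starts. The ratio of observed to expected CpG was 0.738 at Gch1, 0.621 at Drd2, 0.620 at Slc6a3, 0.602 at Maoa and 0.398 at Slc18a2. It was 0.164 and 0.228 at the outer and inner starts of Ddc, and 0.213 and 0.0604 at those of Aldh1a1. Over all coding promoters the median was 0.780 where all 8 libraries had a peak, 0.321 where some did and 0.204 where none did. Drd2 stood apart with a CpG ratio near that of Maoa and no peak in any library, and the inner start of Aldh1a1 with the lowest ratio of the 9 and a peak in 7.

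**Figure D3:**
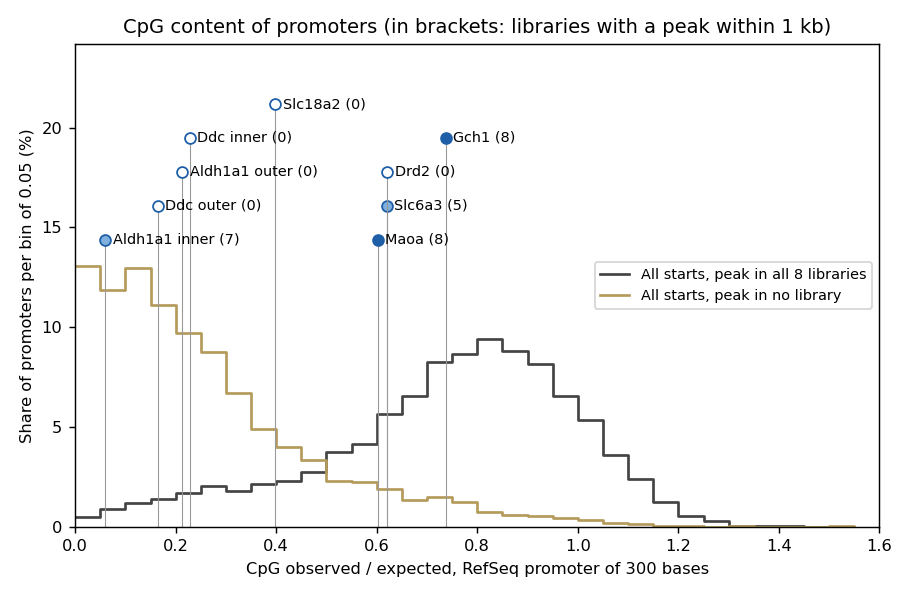
Observed over expected CpG of RefSeq promoters of 300 bases (x axis) against the share of promoters in bins of 0.05 (y axis, %), for starts with a peak in all 8 libraries and in none; circles mark the 9 member starts, filled dark for 8 libraries, light for some and open for none, at heights chosen for legibility. Gch1 (0.738), Drd2 (0.621), Slc6a3 (0.620) and Maoa (0.602) sit under the curve of promoters open in all 8 libraries, but Drd2 had no peak.

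Ddc (chr11:11814101-11898144, − strand) had its open regions in the 3′ part of the gene and beyond it. Its window held 6, 6, 6 and 7 peaks at 37 °C and 4, 4, 5 and 4 at 39 °C. The counts fell at 39 °C without overlap, a pattern that 19.7% of coding genes shared in this direction and 0.251% in the other. The intronic element at +53.5 kb (chr11:11844323-11844969) was called in all 4 libraries at 37 °C, at percentiles of 37.2, 28.9, 31.7 and 49.6, and in none at 39 °C. It was also restricted to 37 °C at a −log10 q of at least 5, as were 4.61% of regions, and on lists of equal length. Fisher's exact test, adjusted over all consensus regions, gave p = 0.450, although 4 against 0 libraries is the most extreme outcome this design allows. The neighbour at +57.2 kb (chr11:11840413-11841540) went from 64.3, 60.6, 59.4 and 69.5 to a single peak at 26.3 in replicate 3 at 39 °C.

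The intronic element at +72.3 kb (chr11:11824582-11826369), chosen after its values were seen, had the largest fall among the 16 window regions called in all 8 libraries. Its percentile was 59.8, 46.7, 42.0 and 60.5 at 37 °C and 14.1, 18.5, 18.7 and 14.3 at 39 °C, and the groups were far apart, where 54.2% of regions had values that did not overlap in this direction. The difference was −35.9 points (SE 5.46, limma adjusted p = 5.7e-05), and in the whole set of 44861 only 0.524% had a larger fall. Its fold enrichment was 5.96 to 8.11 at 37 °C and 3.37 to 3.99 at 39 °C. On lists of equal length it was called in 4 libraries at 37 °C and 2 at 39 °C. About 5 kb away, the element at +77.3 kb (chr11:11819847-11821639) was the strongest of all window regions, at 99.0, 97.5, 95.9 and 98.7 at 37 °C and 97.5, 98.2, 97.4 and 97.7 at 39 °C. The difference of −0.07 points (SE 0.49, limma adjusted p = 0.910) was above that of 90.5% of all regions. That share does not allow for rank, since a shorter list lowers percentiles least at the top. On lists of equal length the difference was 0.53 points (limma adjusted p = 0.588). Of the 16 regions, these neighbours, which rank far apart, had the largest and the smallest differences over all peaks.

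Gch1 had a similar division by calls, with its promoter and intronic elements called at both temperatures and its flanking regions at 37 °C alone. Its window held 6, 6, 4 and 6 peaks at 37 °C and 3 in each library at 39 °C, again without overlap, as for 19.7% of coding genes. The 3 peaks at 39 °C were the promoter and the intronic elements at +11.4 kb and +18.6 kb. The first of these (chr14:47177713-47178550) ranked at 75.1 to 79.2 at 37 °C and 67.6 to 75.3 at 39 °C, a difference of −4.80 points (SE 2.33) that did not pass limma (adjusted p = 0.0750) and turned to 2.28 points on lists of equal length. Downstream of the gene, the intergenic element at +55.3 kb (chr14:47133508-47134546), part of which lies beyond the edge of the window, had percentiles of 45.1, 40.6, 30.5 and 53.2 at 37 °C and no peak at 39 °C. It too was restricted to 37 °C on lists of equal length, and 2.66% of regions were. Beside it at +53.9 kb (chr14:47135226-47135869), and upstream at −19.4 kb (chr14:47208354-47209726), peaks were called in 3 libraries at 37 °C and none at 39 °C. These were weaker, at 14.7 to 26.6 and 5.64 to 25.2, and replicate 3, the shallowest library, lacked both. On lists of equal length neither was called in any library, so the division of the flanks rests on +55.3 kb there.

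Slc18a2 (chr19:59260896-59296012, + strand) had a single consensus region, in an intron at +29.1 kb (chr19:59289637-59290468). It was called in all 8 libraries, at percentiles of 65.7, 64.6, 68.3 and 70.9 at 37 °C and 54.3, 59.9, 59.6 and 49.9 at 39 °C. The groups did not overlap, as for 54.2% of regions in this direction. The difference of −11.4 points (SE 3.55) passed limma (adjusted p = 0.0092), where 62.2% of regions were called lower at 39 °C. With equal lists it was −2.21 points (SE 2.28, limma adjusted p = 0.470), and in the libraries under 100 M fragments −10.5 points (limma adjusted p = 0.0833). Peaks at −12.5 kb and +7.0 kb appeared in 1 library at 37 °C each, at percentiles of 6.36 and 0.807. For Slc6a3 the one other region was intronic, at +38.5 kb (chr13:73575149-73575574), and was called in 3 libraries at 37 °C, at 17.4, 14.7 and 27.2, and in none at 39 °C. On lists of equal length no region of Slc6a3 remained in any library.

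The Drd2 window (gene at chr9:49340627-49408177, + strand) held 3 peaks in every library, all near or past the 3′ end of the gene. The strongest distal region, intergenic at +70.2 kb (chr9:49410033-49411432), ranked at 74.0, 66.2, 69.5 and 74.9 at 37 °C and 66.5, 63.4, 64.4 and 49.9 at 39 °C. The ranges overlapped slightly, and the difference of −10.1 points (SE 3.66, limma adjusted p = 0.0212) became −1.87 points with equal lists (SE 2.23, limma adjusted p = 0.534). The call was also lost without replicate 1 or replicate 4 at 37 °C, at −9.16 and −8.84 points, and in the libraries under 100 M fragments, at −6.79 points (limma adjusted p = 0.246). Without replicate 4 at 39 °C it passed at −6.38 points. The region at +87.0 kb is the promoter of Ankk1, the neighbouring kinase gene.

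Of the breakdown genes, Maoa held the sole window region that was higher at 39 °C by limma. This intronic element at +22.5 kb (chrX:16641411-16642924), chosen after its values were seen, had percentiles of 34.0, 17.5, 6.36 and 29.5 at 37 °C and 39.9, 46.0, 43.1 and 34.2 at 39 °C. The highest library at 37 °C lay just under the lowest at 39 °C, and 0.798% of regions were non-overlapping in this direction. The difference was 19.0 points (SE 6.11, limma adjusted p = 0.0113) against the general fall, and 99.7% of regions had a lower one. Fold enrichment was 3.66, 3.16, 2.68 and 3.27 at 37 °C and 6.59, 7.44, 7.39 and 5.06 at 39 °C. The covered width also rose, from 749 ± 157 to 1215 ± 194 bp (SD, n = 4 each; log2 difference 0.71, SE 0.19, limma adjusted p = 0.0351), where 16.4% of regions were called narrower and 0.399% wider. Its widths did not overlap, as for 0.740% of regions in this direction. The width call, unlike that of the percentile, was lost without any 1 of 5 libraries (replicates 2 and 4 at 37 °C and 1 to 3 at 39 °C), at log2 differences of 0.63 to 0.74. On lists of equal length the element was called in none of the libraries at 37 °C and in all 4 at 39 °C, as were 1.91% of regions.

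Other Maoa regions differed in direction. Nearby, at +18.0 kb, peaks ranked at 26.8 to 51.9 in the 4 libraries at 37 °C and at 20.3 to 26.3 in 3 libraries at 39 °C. The intergenic region at −14.7 kb (chrX:16604460-16605749) ranked at 75.3 to 80.6 at 37 °C and 65.4 to 73.8 at 39 °C, a difference of −7.09 points (SE 2.42, limma adjusted p = 0.0155), close to the median shift. That call was lost on lists of equal length (−0.79 points, limma adjusted p = 0.601), in the libraries under 100 M fragments (−5.14 points, limma adjusted p = 0.193), and without replicate 1 or 4 at 37 °C, at −6.68 and −6.20 points. Maob (chrX:16709282-16817366, − strand) had few called peaks, with 1, 0, 0 and 0 in its window at 37 °C and 2, 1, 2 and 0 at 39 °C. Its intronic region at +103 kb (chrX:16713874-16714390) was called in 1 library at 37 °C, at 14.9, and in 3 at 39 °C, at 27.9, 26.1 and 23.7. The region between the genes (chrX:16706090-16706423) was called in 2 libraries at 39 °C, at 15.1 and 18.7, and in none at 37 °C.

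Within Aldh1a1 the distal regions lay in introns. The strongest, at +66.5 kb (chr19:20558586-20560131), had percentiles of 72.9, 65.0, 61.1 and 72.4 at 37 °C and 66.3, 61.8, 64.6 and 56.6 at 39 °C. The groups overlapped and limma made no call (−5.52 points, SE 3.53, limma adjusted p = 0.171). The difference was 4.07 points on lists of equal length and −0.69 in the libraries under 100 M fragments. At +121.8 kb (chr19:20613986-20614780), a region chosen after its values were seen, percentiles were 61.4, 52.5, 48.8 and 60.4 against 32.3, 35.5, 34.2 and 14.3. The difference of −26.7 points (SE 5.33, limma adjusted p = 0.00046) held on lists of equal length, at −16.0 points (SE 3.16, adjusted p = 0.0016). The region at +44.0 kb (chr19:20536387-20536930) went from 46.2 to 57.2 in 4 libraries at 37 °C to 18.5 and 18.7 in 2 at 39 °C. The region at +20.6 kb (chr19:20513084-20513669) had no peak at 37 °C and 3 at 39 °C, at 19.4, 8.51 and 4.64 (Fisher's exact test p = 0.143).

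**Figure D4:**
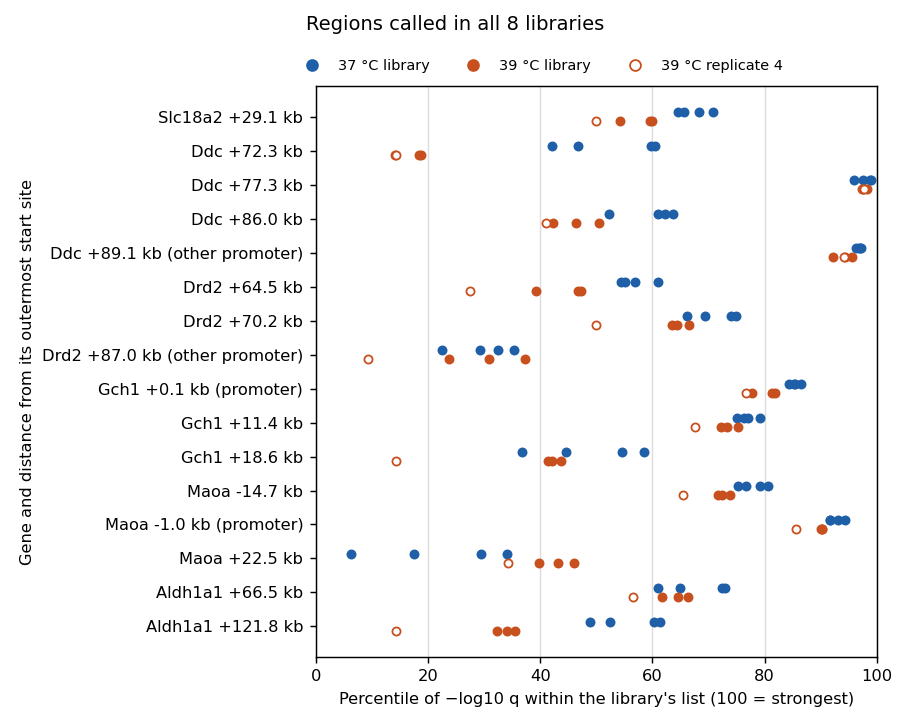
Percentile of −log10 q (x axis, 100 is the strongest) of the 16 window regions called in all 8 libraries, in rows named by gene and distance in kb; blue points are the 4 libraries at 37 °C, orange those at 39 °C, and the open circle is replicate 4 at 39 °C. Ddc +72.3 kb and Aldh1a1 +121.8 kb show the widest gaps to the left, Maoa +22.5 kb lies to the right at 39 °C, and Ddc +77.3 kb stays at 95.9 to 99.0 in every library.

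Across the 16 regions, limma called 10 lower and 1 higher at 39 °C. The shares over the whole set of 44861 were 62.2% and 1.48%, and the median difference of −6.54 points was close to the median of −6.84 over all of them. On lists of equal length 13 regions could be tested. The 2 then called, both lower, were Aldh1a1 +121.8 kb and the promoter of Fignl1 (chr11:11807526-11810075) beyond the 3′ end of Ddc, with background shares of 24.4% lower and 17.0% higher. With the 6 libraries under 100 M fragments alone, 5 of the 16 were called, 4 lower and 1 higher, against 23.9% and 2.24% of all regions tested.

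Of the 12 motifs searched within 100 bp of the summits, AP-1 (TGACTCA) was found in 11 of the 31 regions (35.5%) and in 24.2% of all consensus regions. It was in 5 of the 8 regions with at least 2 more libraries at 37 °C (19.2% of all such regions), in 2 of the 3 with at least 2 more at 39 °C (23.3%) and in 4 of the 16 called in all 8 libraries (26.3%). TEAD (GGAATG) was found in 6 regions (19.4%, against 16.9%). The NR4A response element (NBRE, AAAGGTCA), named for the family of the dopaminergic factor Nr4a2, and TAATCC, a PITX and OTX motif, were in none of the 31 and in 1.28% and 5.14% of all regions. The printed Maoa +22.5 kb and Ddc +77.3 kb sequences held none of the 12.

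Beyond the 8 genes, 26 other genes of the pathway were listed. Of these, 15 had a promoter peak in all 8 libraries (against 59.9% of coding genes), 5 in fewer libraries at 39 °C (7.97%) and 6 in none (31.3%), and none had more at 39 °C (0.470%). The 5 were Pnmt and Drd4 (4 libraries at 37 °C and 0 at 39 °C), Dbh (2 and 0) and both tryptophan hydroxylases, Tph1 and Tph2 (3 and 1 each). They encode the enzymes that make adrenaline and noradrenaline, a dopamine receptor and the first step of serotonin synthesis. Those without a peak included the dopamine receptors Drd3 and Drd5, the noradrenaline transporter Slc6a2, Pcbd1 of the biopterin route, and Sult1a1. Among the 15, limma called 7 promoter percentiles lower and 0 higher at 39 °C (Th, Drd1, Slc18a1, Slc6a4, Gchfr, Aldh1b1 and Adh5), against 59.8% of all promoters. On equal lists 1 was called, against 12.7% of promoters lower and 5.83% higher. This was Th, the rate-limiting hydroxylase, which went from 77.4 to 61.3 over all peaks (−16.1 points, SE 1.94, limma adjusted p = 0.00031) and from 66.4 to 55.3 on equal lists (−11.1 points, limma adjusted p = 0.0021). The T antigen transgene carries a tyrosine hydroxylase promoter of its own, and its part in this value was not tested. Limma called the promoter peaks of Slc6a4 and Pts narrower at 39 °C, against 9.68% of promoters.

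The label of neural precursor cells was compared with promoter peaks of marker genes. Of 7 neural precursor markers 4 were called in all 8 libraries (Nes, Sox2, Pax6 and Msi1), and Fabp7 in none. The same held for 5 of 7 dopaminergic markers (not Lmx1a and Lmx1b), 4 of 5 neuronal, 6 of 6 mesenchymal and 3 of 3 astrocyte markers, and for 0 of 4 oligodendrocyte and 0 of 5 blood and endothelial markers, against 59.9% of all coding genes. Of the last 2 lists, Sox10 and Pecam1 had a promoter peak in 7 libraries each, Olig1 in 4 and Spi1 in 3. In no library did every marker of the precursor list have a peak.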

How the data were processed

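ATAC-seq peak lists of 8 libraries were used, each made from 50000 cells and 12 PCR cycles by the Omni-ATAC protocol. The authors aligned paired reads to mm10 with Bowtie2 (2.4.1), removed duplicates with SAMtools (1.15.1) and Picard (2.26.11) and called peaks per library with MACS3 (3.0.0a7) at q = 0.05, without a control and without a local background. A maximum of 1 fragment per position entered peak calling, per the file headers, which left out 15.4% to 37.3% of the fragments read. The share was highest in replicates 1 and 4 at 37 °C (37.3% and 30.8%). Whether the stated removal of duplicates had been applied to this input was not tested. Removal of blacklisted peaks is also stated, and whether these lists precede it was not tested. The deposited −log10 q and −log10 p values, fold enrichment ratios and pileup signal are the authors' own, and no counts per region were used here. Pileup was not scaled for depth and was not compared, −log10 q grows with depth and was used only as a rank within a list or a threshold, and fold enrichment is relative to 1 background per library. Precision is limited by 4 libraries a group.

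Genes and starts came from GENCODE M21. Regions were merged at 1 bp overlap, and a promoter peak lay within 1 kb of any annotated start of the gene. Values per library were compared by exact permutation tests over all 70 assignments (smallest p = 0.0286), presence by Fisher's exact test, and percentiles and log2 widths by limma (3.58.1, R 4.3.3, empirical Bayes with trend), fitted over all 13145 promoters or all 44861 regions called in all 8 libraries, with Benjamini-Hochberg adjustment and a threshold of 0.05. limma was tested on simulated data. Alternatives were a −log10 q of at least 5, equal list lengths, other distances, normal scores, the libraries under 100 M fragments, a replicate block and leaving out each library.

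The genes and lists were chosen with earlier results of these data known. Named regions were those at member promoters, those restricted to 1 temperature or differing by at least 2 libraries, and the strongest distal region of each gene. All others named were chosen after their values were seen. Pathway genes were named where a promoter peak was missing in any library or limma passed, and the 3 coding genes nearest in mean percentile were named beside Slc6a3. For Aldh1a1, 297 coding genes shared its libraries, with Spin2c, Syt1 and Slc6a15 nearest.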

Additional observations from a re-analysis of the deposited data

Results flagged for a closer look

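In groups of 4 libraries, 70 sets of values were screened for a highest or lowest library that stood far from the rest by Dixon's criterion, which chance meets in about 1 of 20 sets, or 3.5 here. There were 6. In 5 of them the low library was replicate 4 at 39 °C, the one with the shortest list. Its covered length in the 8 windows was 15.2 kb, against 21.8 to 22.2 kb in the others. Its percentile was 14.3 at Gch1 +18.6 kb (others 41.3 to 43.7), 14.3 at Aldh1a1 +121.8 kb (others 32.3 to 35.5) and 85.7 at the Maoa promoter (others 90.0 to 90.3). At the Ankk1 promoter in the Drd2 window it covered 425 bp (others 801 to 830 bp), and there replicate 2 at 37 °C covered 471 bp (others 588 to 606 bp). The part of the list length in these values was not tested.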

How the results depend on the processing

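The fall at Ddc +72.3 kb passed limma in all libraries, on normal scores, in the libraries under 100 M fragments, with the replicate block and without each library in turn (−39.3 to −33.1 points), as did the rise at Maoa +22.5 kb (13.8 to 23.0 points without each library), and neither could be tested on lists of equal length, where not all libraries called them. Among the values of single promoters and regions under all alternatives, 350 kept their side of the threshold, 31 lost a call, 8 gained one and 19 changed sign, and the causes were not tested. On lists of equal length the difference in window peaks per 10000 became −0.228, 1 gene had fewer promoter libraries at 39 °C, 1 region was restricted to 39 °C, limma called 0 of 2 promoter percentiles, 2 of 13 region percentiles and 0 region widths, and differences changed sign at Ddc +77.3 kb (0.53 points), Gch1 +18.6 kb (1.90), Gch1 +11.4 kb (2.28), Aldh1a1 +66.5 kb (4.07) and the Maoa promoter region (log2 width −0.12). In the libraries under 100 M fragments 0 promoter percentiles, 5 region percentiles and 0 region widths were called, and signs changed at Ddc +77.3 kb (1.02 points and a log2 width of 0.0051), in log2 width at the Gch1 promoter (0.0070 for the peak and for the region), the Maoa promoter (0.030) and Slc18a2 +29.1 kb (0.19). With a flank of 5 kb 1 region was restricted to 37 °C. Leaving out 1 library gave a covered length difference of −8.58 to −4.75 kb, 1 to 2 genes with fewer promoter libraries at 39 °C, 2 to 5 regions restricted to 37 °C and 0 to 1 to 39 °C, 0 to 1 promoter widths and 0 to 4 region widths called. It also gave −0.70 to 0.34 points at Ddc +77.3 kb, −8.66 to 0.69 points at the Ankk1 promoter, and log2 widths of −0.15 to 0.035 at Slc18a2 +29.1 kb and −0.055 to 0.21 at the Maoa promoter region.

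Replicate numbers shared between temperatures did not pair the libraries: correlations of same-numbered libraries over 44861 regions were 0.256, −0.153, −0.189 and −0.479, and not every library correlated best with its own number. With the replicate block limma called 8 of 16 region percentiles (7 lower, 1 higher, against 44.2% and 0.856% of all regions), 0 region widths, 2 promoter percentiles and 0 promoter widths, and the window peaks differed by −5.25 (exact sign-flip p = 0.250, smallest possible 0.125). The block ended the percentile calls at Slc18a2 +29.1 kb, Drd2 +70.2 kb and Maoa −14.7 kb. The Slc6a3 promoter reached a −log10 q of 5 in 2 libraries, replicates 1 and 4 at 37 °C, which are also the deepest, so depth and temperature cannot be told apart there.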
